A study of Homo sapiens with 9 samples.

Results

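The genes described here are 10 components of Notch signalling: the receptors NOTCH1, NOTCH2 and NOTCH3, the ligands JAG1, JAG2 and DLL1, and the target genes HES1, HEY1, HEY2 and HEYL. They are 10 of the 64253 gene identifiers counted, taken by symbol from the authors' gene table; where a symbol had several identifiers, the one with the most reads was kept. Their RNA was measured in 9 libraries of IMR90, human fetal lung fibroblasts with a limited life span in culture. All cells were kept at 2% oxygen, used at population doubling 30, infected in 2 rounds 24 hours apart with pLKO.1 lentivirus, and selected in puromycin (3 ug/mL) for 7 days. The 3 control libraries carried pLKO.1 vector alone, described in the sample labels as empty and in the protocol as GFP vector. The 3 shRRM2 libraries carried a short hairpin RNA against RRM2 from the first round and vector from the second. RRM2 is a subunit of the ribonucleotide reductase that supplies deoxyribonucleotides, and the labels call these cells senescent. The 3 shRRM2/shp16 libraries carried that hairpin together with 1 targeting p16, a CDK inhibitor and product of CDKN2A; in the labels these cells are a senescence bypass. The labels list a single hairpin clone for each target and no group with the p16 hairpin alone. They do not say whether the replicates a, b and c came from separate cultures, so the p-values measure the spread between these libraries, which may be technical.

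Notch receptors are single-pass membrane proteins that are activated by ligands on neighbouring cells. Ligand binding exposes the receptor to cleavage by an ADAM protease and then by gamma-secretase, which frees the intracellular domain. That domain enters the nucleus, joins the DNA-binding protein RBPJ and a Mastermind coactivator, and switches on genes such as HES1 and the HEY genes, which encode transcriptional repressors. In cultured fibroblasts, Notch1 activity is known to change the secreted products of senescent cells.

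Total RNA was sequenced after removal of ribosomal RNA with a strand-marking kit, and gene-assigned reads numbered 15770895 to 24873291 per library. Levels are given as CPM, the reads of a gene divided by the TMM-scaled size of its library and set to a total of 1000000. RRM2 stood at 481 to 491, 60.0 to 63.2 and 175 to 181 CPM in control, shRRM2 and shRRM2/shp16. It was thus 2.85-fold higher in shRRM2/shp16 than in shRRM2, so these groups differed in RRM2 RNA as well as in the p16 hairpin. The part of this RRM2 difference in the changes below was not tested. CDKN2A was at 5.95 to 6.15, 5.97 to 6.79 and 3.93 to 4.57 CPM in the same order, counted over the whole gene. The 8 fibroblast markers, among them COL1A1 and PDGFRA, summed to between 20720 and 23590 CPM in every library, mostly from COL1A1 and COL1A2. Single markers moved in both directions: PDGFRA averaged 263, 187 and 709 CPM and THY1 337, 286 and 161 CPM in control, shRRM2 and shRRM2/shp16. The 4 leukocyte markers summed to at most 0.889 CPM, with CD3E at 0 reads throughout, and the 4 epithelial markers to at most 2.15 CPM, with KRT5 at 0 reads throughout.

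The sequences shown first hold copies of the motif bound by RBPJ, the DNA-binding protein through which Notch acts on its targets. They come first because the target genes HES1 and HEY1 were among the 3 members with the largest range between groups. RBPJ binds a core motif, TGGGAA, often within the longer form GTGGGAA, which contains the core. Both were searched on either strand in the 250 bases before each gene start in RefSeq (GRCh38.p14). Only exact matches were counted, so related sites with other letters are not marked in the sequences below. Of 35116 promoters, 20.8% held TGGGAA and 5.43% held GTGGGAA. Promoters were found for 8 of the 10 members but not for HEY1 or DLL1, so HEY1 could not be searched. Of the 3 target genes matched, HES1, HEY2 and HEYL, all 3 held GTGGGAA, and of the 5 receptor and ligand genes matched, 0 held TGGGAA. Of the other pathway genes followed below, 45 had at least 1 promoter matched. Among these, 10 genes held TGGGAA in at least 1 promoter and 3, HES4, HES5 and RBPJ, held GTGGGAA. Several of the genes had more than 1 promoter, and RBPJ held the motif in 1 of 5. These are counts of genes, unlike the shares above, which are of promoters. HES1 held 2 copies of the core, at bases -85 to -79 and -70 to -65 before its start. Its promoter on the plus strand, chr3:194135898-194136144, is given from 5′ to 3′ up to the base before the GENCODE 29 gene start, with both motifs in capitals.
HES1 promoter: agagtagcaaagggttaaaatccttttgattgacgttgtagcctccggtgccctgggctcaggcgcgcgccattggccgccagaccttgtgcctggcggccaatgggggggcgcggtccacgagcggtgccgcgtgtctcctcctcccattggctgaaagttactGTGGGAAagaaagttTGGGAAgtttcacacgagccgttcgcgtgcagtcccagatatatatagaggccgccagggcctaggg

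The sites of the other target promoters, and of HES4, a HES gene outside the 10 members, are set beside those of HES1 to show how far the flanks differ. Each is read 5′ to 3′ along the strand that carries the motif, which is in capitals.
HES1, upstream site, chr3:194136052-194136081, plus strand: tgaaagttactGTGGGAAagaaagtttggg
HES1, downstream site, chr3:194136066-194136095, plus strand: ggaaagaaagttTGGGAAgtttcacacgag
HES4, chr1:1000156-1000185, minus strand: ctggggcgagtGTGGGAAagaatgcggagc
HEYL, upstream site, chr1:39639804-39639833, plus strand: gccgccgagccGTGGGAAggccctaggcgg
HEYL, downstream site, chr1:39639725-39639754, minus strand: aggaaagggcccTGGGAAagggcggtggcg
HEY2, chr6:125749407-125749436, minus strand: ccagccgaggcGTGGGAAcgcggccgcgga
A match of letters is a description and not a measured binding site. As the values below show, HES1 was among the members that changed most, while HEYL and HEY2, with the same 7 letters in their promoters, were barely counted in any library.

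The receptors were lower in shRRM2/shp16 cells than in both other groups, and in shRRM2 cells NOTCH3 was the receptor that had risen. NOTCH1 (ENSG00000148400; GRCh38 chromosome 9, 136494433 to 136545786, minus strand) was counted at 71.3, 74.0 and 72.0 CPM in control replicates a, b and c, at 69.4, 73.5 and 65.8 CPM in shRRM2, and at 44.5, 40.9 and 42.7 CPM in shRRM2/shp16. The control and shRRM2 values overlapped, and every shRRM2/shp16 value lay below them. NOTCH1 fell in shRRM2/shp16 against shRRM2 by 0.70 on the log2 scale (SE 0.05, edgeR quasi-likelihood adjusted p 6.7e-17), to 61.4% of the shRRM2 level. In shRRM2 against control its log2 fold change was -0.06, with a 95% interval of -0.15 to 0.03 (adjusted p 0.27).

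NOTCH2 (ENSG00000134250; chromosome 1, 119911553 to 120069626, minus strand) was the most abundant receptor. It was counted at 434, 426 and 422 CPM in control, 416, 426 and 426 CPM in shRRM2, and 321, 332 and 315 CPM in shRRM2/shp16. Control and shRRM2 overlapped, with a log2 fold change of -0.02 and a 95% interval of -0.07 to 0.04 (adjusted p 0.64). In shRRM2/shp16 NOTCH2 fell against shRRM2 by 0.39 (SE 0.03, adjusted p 3e-16). The NOTCH2NL genes are near-identical copies of the start of NOTCH2, so reads there may be lost as not unique or split.

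NOTCH3 (ENSG00000074181; chromosome 19, 15159038 to 15200981, minus strand), a receptor prominent in vascular smooth muscle cells and pericytes, moved in both directions. Its values were 81.8, 75.8 and 81.1 CPM in control, 105, 113 and 105 CPM in shRRM2 and 53.1, 52.3 and 51.1 CPM in shRRM2/shp16, and no group overlapped another. NOTCH3 rose in shRRM2 against control with a log2 fold change of 0.43 (SE 0.04, adjusted p 2.3e-12), to 135% of control. It then fell in shRRM2/shp16 against shRRM2 by 1.04 (SE 0.04, adjusted p 1.7e-24), to 48.6% of the shRRM2 level, and it was below control by 0.61 (adjusted p 3.8e-16). The 5 mural cell markers moved alongside in part. They summed to 1050 to 1087 CPM in control, 857 to 887 CPM in shRRM2 and 299 to 318 CPM in shRRM2/shp16, nearly all from ACTA2 and CSPG4. Of these 5, 4 were tested; 3 were lower and RGS5 was higher in each of the 3 comparisons, and MYH11, with 3 to 8 reads per library, was too low to test. Their part in the NOTCH3 result was not tested, and in bulk RNA fewer cells of a type and less RNA per cell cannot be told apart.

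**Figure D1:**
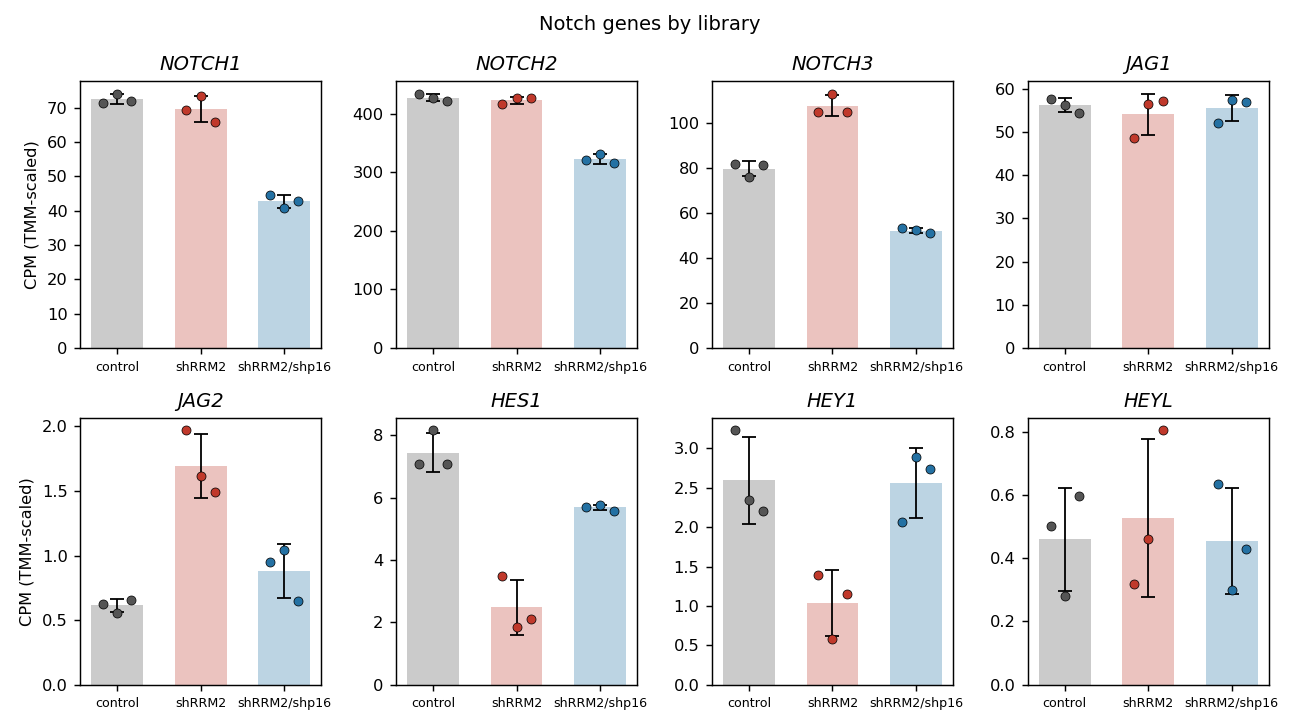
CPM on TMM-scaled library sizes for the 8 Notch genes that passed the low-count filter, by group; points are libraries a, b and c from left to right, bars are means of 3 and error bars are SD. The receptors stand lowest in shRRM2/shp16 (NOTCH1 at 40.9 to 44.5 CPM), while HES1 and HEY1 stand lowest in shRRM2.

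JAG1 was the main ligand among the members and differed least. JAG1 (ENSG00000101384; chromosome 20, 10637684 to 10673999, minus strand) was counted at 57.7, 56.4 and 54.5 CPM in control, 48.6, 56.5 and 57.2 CPM in shRRM2, and 52.2, 57.5 and 57.0 CPM in shRRM2/shp16. All 3 groups overlapped. Its log2 fold changes were -0.05 in shRRM2 against control (95% interval -0.16 to 0.05), 0.04 in shRRM2/shp16 against shRRM2 (-0.07 to 0.14) and -0.02 in shRRM2/shp16 against control (-0.12 to 0.08). The adjusted p-values were 0.37, 0.57 and 0.77, none past the threshold, and the intervals leave room for changes of up to 0.16 on the log2 scale.

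JAG2 (ENSG00000184916; chromosome 14, 105140981 to 105168824, minus strand), the other Jagged ligand, was counted on 10 to 31 reads per library. It was at 0.629, 0.559 and 0.655 CPM in control, 1.97, 1.62 and 1.49 CPM in shRRM2, and 0.951, 1.05 and 0.645 CPM in shRRM2/shp16. The shRRM2 values lay above all others, and the remaining groups overlapped. JAG2 rose in shRRM2 against control with a log2 fold change of 1.44 (SE 0.29, adjusted p 3.4e-05) and fell in shRRM2/shp16 against shRRM2 by 0.92 (SE 0.27, adjusted p 0.0029). Against control, shRRM2/shp16 gave 0.52 with a 95% interval of -0.13 to 1.17 (adjusted p 0.16).

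DLL1, a Delta-type ligand, was near the limit of counting. Of its 2 identifiers the one kept, ENSG00000275555, held 5 reads over all 9 libraries and the other held 1. The identifier kept is not on the primary assembly of GENCODE 29, and reads that fit copies of a gene on alternate sequences may be lost as not unique. In shRRM2 all 3 libraries had 0 reads, and a count of 0 allows up to 3 reads, or 0.172 to 0.190 CPM, per library. A change in DLL1 was not detectable at this depth.

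The target genes HES1 and HEY1 fell in shRRM2 and were higher again in shRRM2/shp16. HES1 (ENSG00000114315; chromosome 3, 194136145 to 194138732, plus strand), a repressor that also acts on its own promoter, was counted at 7.08, 8.16 and 7.09 CPM in control, 3.49, 1.85 and 2.12 CPM in shRRM2, and 5.71, 5.78 and 5.59 CPM in shRRM2/shp16. No group overlapped another, and shRRM2 replicate a was the highest of its group. In shRRM2 HES1 fell against control by 1.59 (SE 0.16, adjusted p 6.8e-12), to 33.2% of control, on 32 to 55 reads per library. In shRRM2/shp16 it rose against shRRM2 with a log2 fold change of 1.21 (SE 0.16, adjusted p 2.4e-08), a 2.31-fold difference. It was still below control by 0.38 (SE 0.13, adjusted p 0.0086). That last call rested on control replicate b: without it the log2 fold change was -0.31 and the edgeR adjusted p 0.055, and over all 15 alternatives the adjusted p ran from 0.0041 to 0.055.

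HEY1 (ENSG00000164683; chromosome 8, 79764010 to 79767863, minus strand), a repressor of the same protein class, was counted at 3.23, 2.35 and 2.20 CPM in control, 1.40, 0.577 and 1.15 CPM in shRRM2, and 2.06, 2.89 and 2.74 CPM in shRRM2/shp16. The shRRM2 values lay below all others, and control and shRRM2/shp16 overlapped. HEY1 fell in shRRM2 against control by 1.36 (SE 0.25, adjusted p 1.1e-05), on 10 to 22 reads per library, and rose in shRRM2/shp16 against shRRM2 with 1.31 (SE 0.25, adjusted p 2e-05). Against control, shRRM2/shp16 gave -0.04 with a 95% interval of -0.45 to 0.36 (adjusted p 0.86), and these 2 groups were not told apart.

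A measure of library composition moved with the groups in the direction opposite to HES1 and HEY1. Some unique alignments were assigned to no gene feature in the counting, and these may include reads in introns. Their share was 17.6% to 18.9% in control, 27.7% to 28.8% in shRRM2 and 23.5% to 24.4% in shRRM2/shp16. It was highest in shRRM2, where HES1 and HEY1 were lowest. Its part in the changes of these genes was not tested.

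HEYL (ENSG00000163909; chromosome 1, 39624153 to 39639945, minus strand) passed the filter with 5 to 14 reads per library. It ranged from 0.280 to 0.596 CPM in control, 0.317 to 0.803 CPM in shRRM2 and 0.299 to 0.634 CPM in shRRM2/shp16, and all groups overlapped. Its log2 fold change in shRRM2 against control was 0.21 with a 95% interval of -0.65 to 1.07 (adjusted p 0.69), an interval wide enough to take in a 2-fold change. HEY2 (ENSG00000135547; chromosome 6, 125747664 to 125761269, plus strand) had 2 reads in all, in control replicates b and c, and was not tested.

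**Figure D2:**
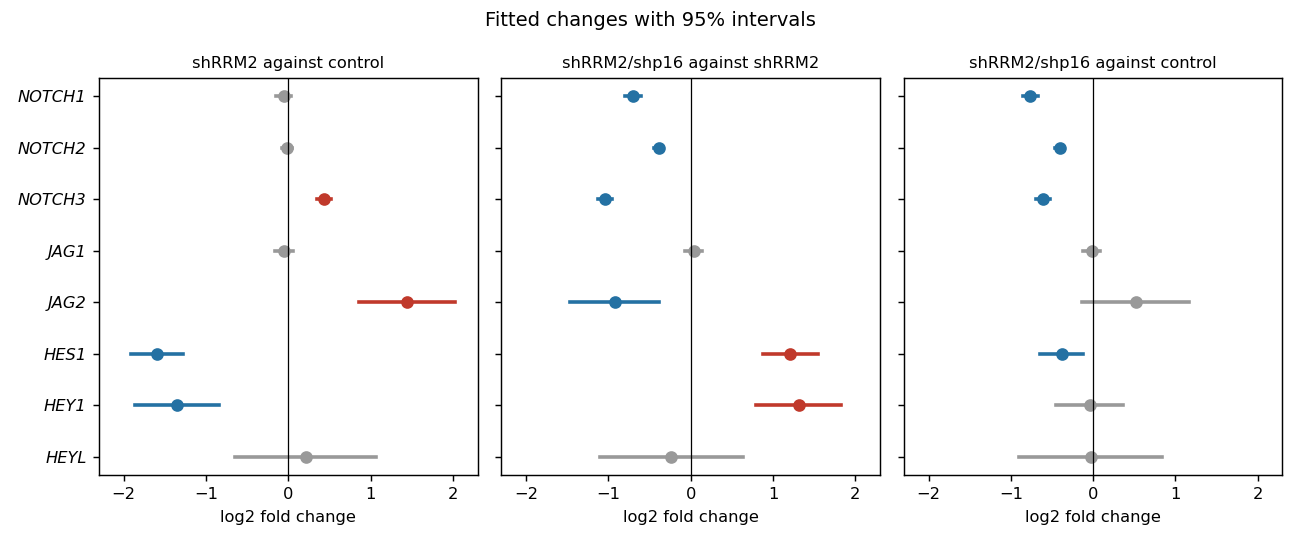
Fitted log2 fold changes of the 8 tested Notch genes in the 3 comparisons, with 95% intervals as horizontal lines; red is higher and blue lower at an adjusted p under 0.05, grey did not pass. In shRRM2/shp16 against shRRM2 the 3 receptors lie below 0 (-0.70, -0.39 and -1.04) while HES1 (1.21) and HEY1 (1.31) lie above it.

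These counts have to be read against a background in which most genes changed. In shRRM2 against control 60.9% of the 16561 genes tested were past the threshold, 29.0% higher and 31.8% lower, and of the 8 tested members 4 were, NOTCH3 and JAG2 higher and HES1 and HEY1 lower. The members' median log2 fold change was -0.03, against 0.00 over all tested genes. In shRRM2/shp16 against shRRM2, where the background was 61.1%, with 31.9% higher and 29.1% lower, 6 members were called. HES1 and HEY1 were higher, the 3 receptors and JAG2 were lower, and the median was -0.31 against 0.01. In shRRM2/shp16 against control the background was 62.4%, with 30.0% higher and 32.4% lower. The 3 receptors and HES1 were called there, all lower, and 0 members were higher, with a median of -0.21 against 0.01. The shares of members called, 50%, 75% and 50%, were near the background, so the number of calls says nothing particular about Notch genes. Changes of at least 2-fold were less common in the background: 3.26% of tested genes were called lower by that much in shRRM2 against control, as HES1 and HEY1 were, and 6.81% higher, as JAG2 was. In shRRM2/shp16 against shRRM2, 5.19% were called higher by that much, HES1 and HEY1 among them, and 6.58% lower, NOTCH3 among them. Groups that did not overlap were found for 63.6%, 64.7% and 66.2% of tested genes in the 3 comparisons, and for 4, 6 and 4 of the 8 members. The 3 comparisons share libraries, so each member's changes in them are not independent.

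Levels per length put the receptors above the ligands and targets among the members in control and shRRM2, but not in shRRM2/shp16. On the RPKM scale (CPM per kilobase of exon in GENCODE 29), NOTCH2 was at 25.4 ± 0.362 in control (mean ± SD, n = 3), followed by NOTCH3 at 8.47 ± 0.350, NOTCH1 at 6.98 ± 0.134, JAG1 at 6.04 ± 0.172, HES1 at 3.61 ± 0.301 and HEY1 at 0.802 ± 0.171. Each of these lay above the next without overlap. HEYL at 0.126 ± 0.0444 and JAG2 at 0.0960 ± 0.00776 overlapped. In shRRM2 the first 6 places were the same, with NOTCH3 at 11.4 ± 0.50 and HES1 at 1.21 ± 0.427, and HEY1 and JAG2 overlapped at 0.322 ± 0.130 and 0.264 ± 0.0386. In shRRM2/shp16 JAG1, at 5.98 ± 0.315, overlapped NOTCH3, at 5.56 ± 0.108, and both lay above NOTCH1 at 4.11 ± 0.176.

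The receptor pool was smaller in shRRM2/shp16 and differed in make-up. The summed RPKM of the 3 receptors was 40.6 to 41.4 in control, 42.6 to 44.5 in shRRM2 and 28.3 to 29.2 in shRRM2/shp16. NOTCH2 made up 61.7% to 62.5% of that sum in control, 57.0% to 59.2% in shRRM2 and 65.7% to 67.5% in shRRM2/shp16. NOTCH3 made up 19.9% to 21.2%, 26.0% to 27.0% and 19.1% to 19.5% in the same order. The shRRM2 cells thus had the highest share of NOTCH3, and the shRRM2/shp16 cells the highest share of NOTCH2, in all 3 libraries each. These shares were not tested.

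**Figure D3:**
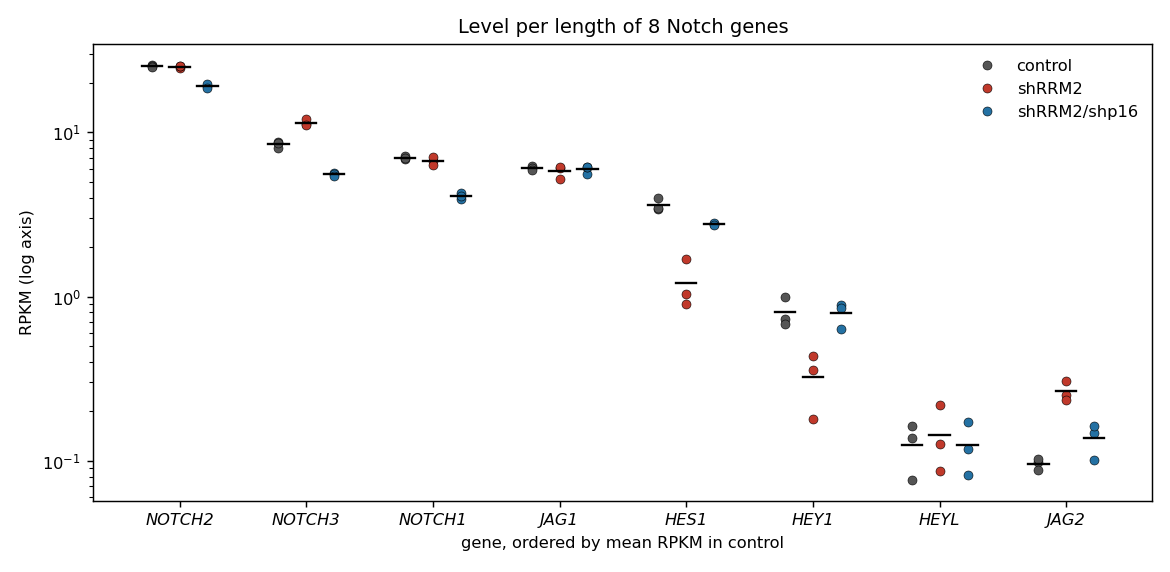
RPKM on a log axis for 8 Notch genes, ordered by their mean in control; points are libraries, short lines are means, and colours are groups. NOTCH2 lies above 18 in every library, and HES1 falls from 3.61 in control to 1.21 in shRRM2.

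The genes most like HES1, JAG2 and HEY1, the 3 members with the largest range between group means (1.62, 1.42 and 1.36 on the log2 scale), were found by the root mean square distance between centred log2 CPM values over the 9 libraries. Among 11252 genes whose mean log2 CPM was 2 or more, HMGB3 (distance 0.25), PCOLCE (0.27) and ZNF853 (0.27) were nearest to HES1. PCOLCE, which encodes an enhancer of procollagen processing, averaged 206, 83.4 and 205 CPM in control, shRRM2 and shRRM2/shp16. ST3GAL6 (0.17), FADS3 (0.20) and SYT16 (0.20) were nearest to JAG2, and FADS3 averaged 22.3, 49.6 and 29.7 CPM in the 3 groups. TAF9B (0.31), AQP3 (0.32) and PTX3 (0.32) were nearest to HEY1, and PTX3, a secreted pentraxin, averaged 16.4, 7.75 and 20.1 CPM.

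The wider pathway was followed in 52 other genes, of which 46 passed the filter. In shRRM2 against control 16 of the 46 were higher and 18 lower (median log2 fold change -0.02), in shRRM2/shp16 against shRRM2 22 were higher and 11 lower (0.15), and in shRRM2/shp16 against control 18 were higher and 13 lower (0.08). The shares called were 73.9%, 71.7% and 67.4% of the list, beside 60.9%, 61.1% and 62.4% of all tested genes, whose medians were 0.00, 0.01 and 0.01. The largest change in shRRM2 was in NEURL1B, a ubiquitin ligase related to the Neuralized proteins that help ligands to be taken up and become active. It fell from 51.5 ± 1.16 CPM in control to 13.7 ± 0.689 CPM in shRRM2 (log2 fold change -1.91, SE 0.06, adjusted p 7.2e-28) and rose to 26.2 ± 1.59 CPM in shRRM2/shp16 (0.93, adjusted p 1.8e-15). MIB1, the Mind bomb ligase of the same step, averaged 88.4 ± 1.14, 90.0 ± 3.03 and 113 ± 1.85 CPM in the 3 groups, and rose in shRRM2/shp16 against shRRM2 with 0.33 (adjusted p 4.2e-10).

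Among the other ligands, DLK1, a ligand-like protein that lacks the Delta receptor-binding module, fell in shRRM2 from 6.89 ± 0.936 to 4.58 ± 0.773 CPM and rose in shRRM2/shp16 to 13.5 ± 1.27 CPM (1.56 against shRRM2, SE 0.12, adjusted p 2.3e-15). DLL4, a Delta-type ligand best known from endothelial cells, was picked out after its values were seen. It averaged 34.0 ± 3.35, 45.0 ± 0.828 and 54.7 ± 2.60 CPM in control, shRRM2 and shRRM2/shp16. DLL4 rose in shRRM2 against control and again in shRRM2/shp16 against shRRM2, with log2 fold changes of 0.40 (adjusted p 9.9e-08) and 0.28 (adjusted p 1.6e-05). On the RPKM scale its mean exceeded that of JAG1 in every group, control included. DLL4 was at 7.14 ± 0.704, 9.46 ± 0.175 and 11.5 ± 0.546 in control, shRRM2 and shRRM2/shp16, and JAG1 at 6.04, 5.82 and 5.98. The 5 endothelial markers summed to 65.3 to 70.5 CPM in control, 67.8 to 73.0 CPM in shRRM2 and 115 to 124 CPM in shRRM2/shp16. Nearly all of that was TEK; CDH5 had 0 or 1 read per library. Of the 4 that were tested, 0 were called in shRRM2 against control, and TEK and KDR were higher in shRRM2/shp16 against shRRM2. The part of these markers in the DLL4 result was not tested. NOTCH4, with 7 identifiers, had 1 read at most in any library for the identifier kept. Like that of DLL1, this identifier has no position in the annotation used. Reads that fit several copies of the gene may be lost as not unique, so this count does not show whether NOTCH4 was expressed.

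Of the 9 receptor cleavage genes 6 were called higher and 2 lower in shRRM2 against control, where 29.0% of all tested genes were called higher and 31.8% lower. The highest was ADAM10, the protease of the ligand-dependent cut, at 0.46 (log2, adjusted p 1.3e-16). In shRRM2/shp16 against control 6 were higher and 2 lower, beside 30.0% and 32.4% of all tested genes, and ADAM17 had the largest change, 0.67 (adjusted p 1.4e-15). FURIN, which cleaves the receptor precursor, had the largest change in shRRM2/shp16 against shRRM2, where it fell by 0.58 (adjusted p 2.8e-20). Of the enzymes that add sugars to the receptors, LFNG, which modifies how receptors respond to ligands, fell in shRRM2 from 1.85 ± 0.109 to 0.927 ± 0.143 CPM (adjusted p 0.001). POGLUT1 rose in shRRM2/shp16 against shRRM2 with 0.57 (adjusted p 4.3e-11) and against control with 0.38 (adjusted p 2.8e-07).

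In the nuclear complex RBPJ, also picked out after its values were seen as the factor of the motif above, averaged 162 ± 4.97, 182 ± 2.89 and 139 ± 3.26 CPM in control, shRRM2 and shRRM2/shp16. It rose by 0.17 in shRRM2 (log2, adjusted p 2.2e-05) and fell in shRRM2/shp16 against shRRM2 by 0.40 (adjusted p 6.8e-14). Its direction in both steps was that of NOTCH3 and opposite to that of HES1. The coactivator MAML3 rose in shRRM2 with 0.80 (adjusted p 6.2e-14) and MAML2 in shRRM2/shp16 against shRRM2 with 0.50 (adjusted p 4e-15). Of 8 corepressor genes 1 was higher and 4 lower in shRRM2 against control, and 3 were higher and 0 lower in shRRM2/shp16 against shRRM2. The shares called were 62.5% and 37.5%, beside 60.9% and 61.1% of all tested genes. The Groucho-type corepressor TLE3 fell in shRRM2 by 0.66 (adjusted p 5.3e-15) and in shRRM2/shp16 against control by 0.48 (adjusted p 1e-11). KDM5A, a histone demethylase, rose in shRRM2/shp16 against shRRM2 with 0.29 (adjusted p 1.7e-09).

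Among genes of receptor turnover, FBXW7, which marks the intracellular domain for degradation, rose in shRRM2 with 0.42 (adjusted p 1.5e-08). DTX4, a Deltex ubiquitin ligase, was at 18.9 ± 0.972, 24.6 ± 1.72 and 42.3 ± 1.07 CPM in the 3 groups, and rose in shRRM2/shp16 with 0.78 against shRRM2 (adjusted p 3.1e-15) and 1.16 against control (adjusted p 5.5e-21). NRARP, a known Notch target and inhibitor, had 0 to 5 reads per library and was not tested. Of the other HES genes, HES6 averaged 1.61 ± 0.353, 0.9997 ± 0.267 and 2.21 ± 0.317 CPM in control, shRRM2 and shRRM2/shp16, and rose in shRRM2/shp16 against shRRM2 with 1.12 (SE 0.25, adjusted p 0.00015). HES7 had 9 to 14 reads in control, 0 to 7 in shRRM2 and 18 to 24 in shRRM2/shp16, and rose in the latter against shRRM2 with 1.99 (SE 0.44, adjusted p 0.00015). Its fall in shRRM2 against control by 1.27 (adjusted p 0.023) rested on replicate c of shRRM2 with 0 reads: without it the log2 fold change was -0.67 (adjusted p 0.21, and 0.013 to 0.21 over 13 alternatives). HES4 had its largest change in shRRM2/shp16 against control, where it fell by 0.45 (adjusted p 0.00051), and its log2 fold change in shRRM2 against control was -0.15 (adjusted p 0.26).

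**Figure D4:**
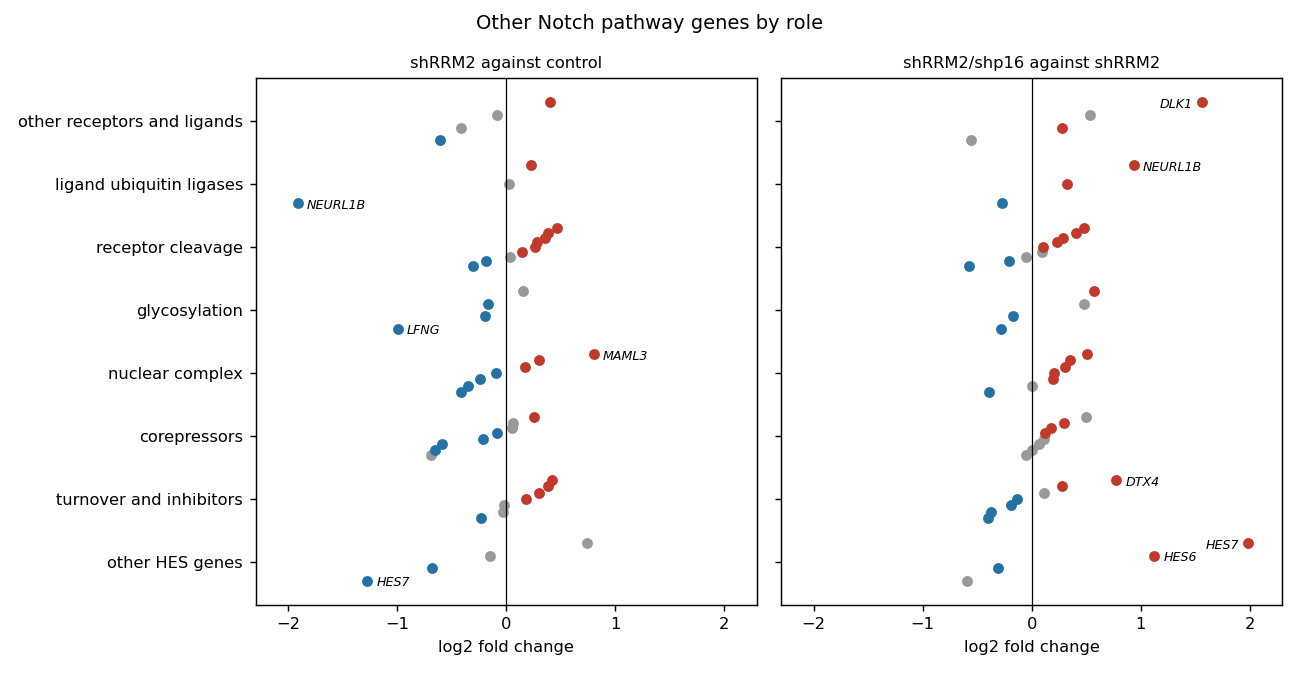
Fitted log2 fold changes of 46 tested Notch pathway genes outside the 10 members, grouped by role, in 2 comparisons; red is higher and blue lower at an adjusted p under 0.05, grey did not pass. NEURL1B lies at -1.91 in shRRM2 and at 0.93 in shRRM2/shp16 against shRRM2, where DLK1 lies at 1.56.

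The authors' deposited table holds a test of shRRM2/shp16 against shRRM2, and its values for the members had the same signs as those from the counts for all members called there. Its per-length column for shRRM2 replicate c matched the counts within 5% for only 27.6% of genes with at least 50 reads in every library. Whether its test used the same reads for that library is not known. The authors' deposited table lists log2 fold changes of -0.77 for NOTCH1, -0.36 for NOTCH2 and -1.27 for NOTCH3, with q-values of 4.4e-04, 0.0248 and 4.4e-04. For the targets the authors' deposited table lists 1.32 for HES1 and 1.69 for HEY1, both with a q-value of 4.4e-04. For the ligands it lists -1.50 for JAG2 (q-value 0.0283) and -0.01 for JAG1 (q-value 0.974) in the authors' deposited table.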

How the data were processed

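RNA sequencing of 3 groups of 3 libraries was analysed. The authors deposited raw read counts per Ensembl gene, in the layout of HTSeq output, and a table whose log2 columns hold log2(x + 1) of a per-length value and the log2 fold change, p-value and q-value of 1 comparison, per the file headers. The submitters' processing notes name TopHat2 2.0.9, Cufflinks 2.0.2, Cuffdiff and GRCh38. The strand setting of the counting is not given in the sources used here. In 8 of the log2 columns all genes with at least 50 reads in every library matched the counts within 5%; in that of shRRM2 replicate c 27.6% did, and these columns were not used for levels. There were 0 per-sample columns without a sample.

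Counts were tested in R 4.3.3 with edgeR 4.0.16: filterByExpr (16561 genes, 99.8% of counts), TMM scaling, and 1 quasi-likelihood model of group means over all 9 libraries (6 residual degrees of freedom). Tests were two-sided, with Benjamini-Hochberg adjustment over all genes tested and a threshold of 0.05. Deviations of same-lettered libraries from their group means correlated at 0.12 to 0.30 in all 3 pairs of control and shRRM2/shp16 (log2 CPM), so the letters were taken to pair these groups, from the data and not from the labels. The main model holds no term for this pairing, which was fitted only as the replicate block given at the end. Intervals are 95% intervals of the fitted change. Tests and intervals also used degrees of freedom that edgeR borrows across genes, beyond the 6 residual ones. The fit was tested on simulated data in which far fewer genes changed than were called here, so that test does not measure error in these data. Positions and exon lengths are from GENCODE 29. Named pathway genes were those called and changed at least 2-fold, and the largest call in each role; MIB1, DLL4, RBPJ, NOTCH4 and NRARP were added after their values were seen. A gene of the pathway list is not reported here and was left out of its counts. The members and lists were chosen with earlier results of these data known. DESeq2 1.42.0 and other alternatives are given at the end. No molecular identifiers are named in the sources used here, so limits from counts cover counting error only.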

Additional observations from a re-analysis of the deposited data

How the results depend on the processing

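Alternatives were RLE size factors, DESeq2, dropping the filter, requiring 10 counts in all libraries, only the 6 libraries compared, a replicate block, and each library left out in turn. The count of members called stayed at 4 (shRRM2 against control) and 6 (shRRM2/shp16 against shRRM2) under all 15, and was 3 to 4 for shRRM2/shp16 against control. Of the member changes, 353 of 354 values kept their call; the exception was HES1 against control without control replicate b. Of the values for named pathway genes 3 lost their call, all HES7 in shRRM2 against control: with DESeq2 (-1.28, adjusted p 0.052), without control replicate b (-1.11, adjusted p 0.081) and without shRRM2 replicate c. HEYL was not tested when 10 counts were required or only 6 libraries were used, and DLL1 and HEY2 were not followed. Library totals alone moved 6 of 24 group levels by more than their SD. A replicate block changed no call of a member or named pathway gene; with it 10101, 10134 and 10388 genes were called, beside 10079, 10116 and 10339. In the comparisons with shRRM2 the letters did not pair the libraries (correlations -0.15 to 0.11), and 2 of 6 libraries in each correlated best with their own letter. Low reads limit HEYL, JAG2, HEY2 and DLL1.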
